A study of Homo sapiens with 6 samples.

Results

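Tetrahydrobiopterin and kynurenine enzymes were followed in cells given interleukin-1. The set holds 10 genes, GCH1, GCHFR, PTS, SPR, QDPR, NOS2, IDO1, KYNU, KMO and TDO2, chosen by symbol in the platform annotation, and 16 array probes carry these symbols, of 18848 genes and 28085 probes named there. The genes were picked with their response to IL-1 already known, so their IL-1 values are given below as a description, with no test. The cells were SW1353, an established human chondrosarcoma line. All cultures were starved of serum for about 20 h, after which 3 IL-1 samples received interleukin-1 alpha at 0.5 ng/ml for 6 h and 3 control samples received none. Each sample was hybridised to 1 Illumina bead array.

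Tetrahydrobiopterin is a cofactor of the nitric oxide synthases and of the enzymes that hydroxylate aromatic amino acids. It is made from GTP by GTP cyclohydrolase (GCH1), PTS and SPR in turn, kept in the reduced form by QDPR, and its synthesis is restrained by the GCH1 feedback regulator GCHFR. In the kynurenine pathway, IDO1 or TDO2 opens the indole ring of tryptophan, KMO hydroxylates kynurenine, and KYNU cleaves kynurenine and its hydroxylated form, on the way to nicotinamide adenine dinucleotide (NAD). In many human cell types IDO1 and GCH1 are known to be induced by interferon gamma and other inflammatory cytokines.

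The sample titles come in 2 kinds. IL-1 replicates 1 and 2 and control replicates 1 and 2 are titled Allstars, and IL-1 replicate 3 and control replicate 3 are titled Sample. What separates these kinds is not explained in the labels, and the Sample arrays stood apart in scale, with median signals of 91.5 for IL-1 and 95.3 for control, against 60.3 to 67.2 on the Allstars arrays. Between 11954 and 13357 probes per array were above background (detection p under 0.01). Of the 8 cartilage markers examined, SOX9 and HAPLN1 were above background on all 6 arrays and the other 6, COL2A1 and ACAN among them, on 0. All 5 mesenchymal markers were above background on all 6 arrays. Of 10 leukocyte markers on the array, CD68 and CSF1R were above background on all 6 arrays and 7, PTPRC and CD14 among them, on 0. Of 3 endothelial markers VWF was above background on all 6 arrays and the other 2 on 0, and of 3 epithelial markers 2 were on 0 and none on all 6. The summed normalized marker signal was lower on every IL-1 array than on every control array for cartilage, at 802.5 to 1159 on the IL-1 arrays and 1237 to 1405 on the control arrays, and for endothelium, at 144 to 181.7 on the IL-1 arrays and 184.9 to 227.4 on the control arrays. The sums overlapped for mesenchymal markers (34620 to 40690 on the IL-1 arrays and 40130 to 42580 on the control arrays), leukocyte markers (7474 to 12960 with IL-1 and 6873 to 10360 in control) and epithelial markers (75.4 to 130.1 with IL-1 and 81.7 to 150.1 in control). The part of these marker levels in the results was not tested. Separate cultures are not stated for the replicates, so p-values and errors cover the spread among these samples only, and that spread may be technical. The arrays measured whole cultures, in which more expressing cells and more RNA per cell cannot be told apart.

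The promoters of KYNU and TDO2 are shown because both genes had higher signals on the IL-1 arrays and both have an entry in the RefSeq promoter table (GRCh38.p14, 250 bases before to 50 after the gene's start, plus strand). Those of GCH1, IDO1 and NOS2 were not analysed here. The KYNU window is chr2:142877414-142877713 and the TDO2 window is chr4:155903446-155903745. Capitals mark matches, on either strand, to the GAS motif (TTCNNNGAA), the AP-1 motif (TGANTCA) and the CCAAT box.
KYNU: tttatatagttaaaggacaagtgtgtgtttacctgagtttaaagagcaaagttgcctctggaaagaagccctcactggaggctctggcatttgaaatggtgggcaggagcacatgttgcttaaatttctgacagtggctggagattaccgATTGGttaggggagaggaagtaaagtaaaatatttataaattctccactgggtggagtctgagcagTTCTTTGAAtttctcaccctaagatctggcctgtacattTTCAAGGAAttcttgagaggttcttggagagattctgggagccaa
TDO2: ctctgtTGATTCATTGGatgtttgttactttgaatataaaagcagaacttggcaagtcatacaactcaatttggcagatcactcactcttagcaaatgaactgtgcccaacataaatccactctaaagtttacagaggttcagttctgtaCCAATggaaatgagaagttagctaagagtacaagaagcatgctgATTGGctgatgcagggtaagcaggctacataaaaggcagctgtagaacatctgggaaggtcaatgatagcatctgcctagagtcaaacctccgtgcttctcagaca
The KYNU window held GAS matches at -34 to -26 and at 6 to 14 from the gene's start, and a CCAAT box on the antisense strand. The TDO2 window held an AP-1 match at -244 to -238, which overlaps 1 of its 3 CCAAT boxes. A kappaB consensus, an ISRE part (GAAANNGAA) and a CRE (TGACGTCA) were also searched on both strands, with 0 matches in the KYNU and TDO2 windows. Among 35116 promoter windows of 300 bases, 7.66% held a GAS match, 7.71% an AP-1 match, 34.6% a CCAAT box, 14% a kappaB match, 8.11% the ISRE part and 1.85% a CRE. Of the other members in the table, QDPR held 1 kappaB match, GCHFR and PTS 1 CCAAT box each, KMO 2 overlapping CCAAT boxes, and SPR 0 matches. A match describes the letters of the window and does not show a bound site.

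**Figure D1:**
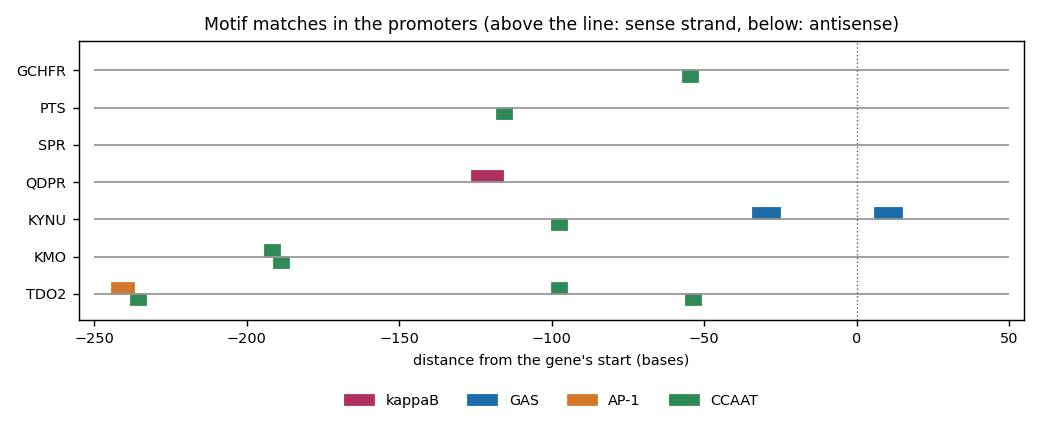
Motif matches in the promoter windows of 7 members, by distance in bases from the gene's start (x axis), with sense matches above each line and antisense matches below it. KYNU carries the 2 GAS matches, TDO2 the AP-1 match and QDPR the kappaB match.

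Signals below are background-corrected, quantile-normalized log2 values, and differences are IL-1 minus control on that scale. GCH1, IDO1, KYNU and TDO2 had higher signals on the IL-1 arrays, while in PTS, SPR and QDPR, the later enzymes of tetrahydrobiopterin synthesis and recycling, the groups overlapped. GCHFR, NOS2 and KMO were not above background on any array. Of the 10 genes 7 passed the detection filter (detection p under 0.01 on at least 3 arrays), and IDO1 and TDO2 passed it only through the IL-1 arrays. In the fit over all 9078 genes tested, GCH1, IDO1, KYNU and TDO2 were among the 552 genes called higher (6.08%, limma adjusted p under 0.05), and 0 members were among the 267 called lower (2.94%). In the same 4 members all 3 IL-1 arrays lay above all 3 control arrays, as in 11% of all genes tested. The members were chosen on this contrast, so these counts describe the choice.

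GCH1 makes the first and rate-limiting step of tetrahydrobiopterin synthesis. Its brightest probe (ILMN_1812759) had log2 signals of 10.17, 10.04 and 10.34 on the IL-1 arrays and 5.86, 5.13 and 6.08 on the control arrays. The groups did not overlap, and the difference was 4.50 ± 0.25 (SE, n = 3 each), or 22.5-fold. Of the control arrays only 1 was above background at this probe, so the fold rests on control signals near the floor. In the deposited, unnormalized signals the same probe read 723, 504.5 and 2556 on the IL-1 arrays and 95.6, 67.7 and 189.3 on the control arrays, higher on the Sample arrays in both groups.

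The other GCH1 probes, which the annotation assigns to different GCH1 transcripts, moved the same way. Probe ILMN_2335813 had log2 signals of 7.93, 7.62 and 8.44 on the IL-1 arrays and 4.49, 4.57 and 4.93 on the control arrays. It was above background on 3 IL-1 and 0 control arrays, so only a bound can be given, at least 4.11-fold. Probe ILMN_1788802 had 6.76, 6.79 and 7.54 on the IL-1 arrays and 5.28, 4.85 and 4.94 on the control arrays, at least 2.10-fold higher. Such a bound sets the mean of the IL-1 arrays against, on each control array, the higher of the lowest signal above background and the probe's own signal. IL-1 replicate 3, the Sample array, was the highest of its group at all 3 GCH1 probes.

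The 2 enzymes that follow GCH1 gave no such difference. PTS, which converts the product of GCH1, had log2 signals of 9.99, 9.89 and 10.66 on the IL-1 arrays and 9.84, 9.74 and 10.53 on the control arrays. The groups overlapped, with a difference of 0.14 ± 0.28 (SE), and its second probe differed by 0.22 ± 0.18. These SE were fitted without the title kind, and the Sample array was the highest of each group at both PTS probes. Within each kind every IL-1 array lay above every control array at both probes, by small amounts. The PTS difference was 0.15 between Allstars and 0.12 between Sample arrays, and at the second probe 0.28 and 0.11. SPR, which makes the last reduction to tetrahydrobiopterin, had 8.86, 8.97 and 9.01 on the IL-1 arrays and 8.97, 8.80 and 9.08 on the control arrays, a difference of -0.00 ± 0.14. QDPR, which reduces the cofactor after use, had 10.74, 10.74 and 10.78 on the IL-1 arrays and 10.82, 10.65 and 10.80 on the control arrays, a difference of -0.00 ± 0.12. The 3 genes were above background on all 6 arrays.

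GCHFR was not above background on any array. Its log2 signals were 5.59, 5.06 and 4.62 on the IL-1 arrays and 4.83, 4.79 and 4.58 on the control arrays, and its lowest detection p was 0.0224, on an IL-1 array. The inducible nitric oxide synthase NOS2 has 2 probes, and neither was above background on any array, with log2 signals of 4.53 to 4.96 on the IL-1 arrays and 4.54 to 4.95 on the control arrays. The other nitric oxide synthases, NOS1 and NOS3, were also above background on 0 arrays.

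**Figure D2:**
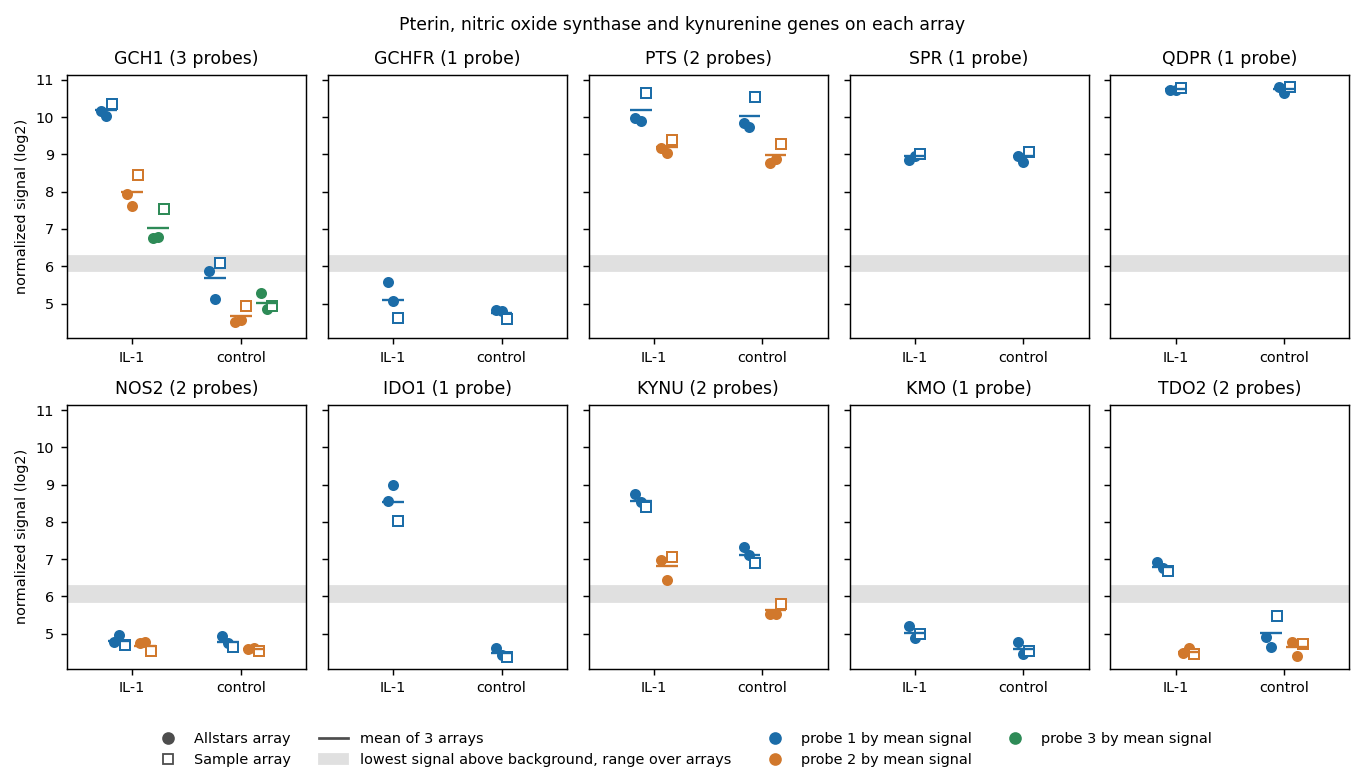
Normalized log2 signal (y axis) of every probe of the 10 genes on the 3 IL-1 and 3 control arrays, with filled circles for Allstars arrays, open squares for Sample arrays, bars for means of 3 arrays, and a grey band for the range over arrays of the lowest signal above background. IL-1 and control points are apart for GCH1, IDO1, KYNU and 1 TDO2 probe, and overlap for PTS, SPR and QDPR. Those of GCHFR, NOS2 and KMO lie under the band, where the KMO groups are also apart.

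IDO1, which opens the tryptophan ring in many cell types outside the liver, had log2 signals of 8.55, 8.996 and 8.03 on the IL-1 arrays and 4.63, 4.43 and 4.39 on the control arrays. It was above background on 3 IL-1 and 0 control arrays, and the lowest detection p of a control array was 0.404. The IL-1 signal was at least 5.93-fold higher, the fitted difference being 4.04 ± 0.27 (SE, n = 3 each) against control signals below background. Unlike GCH1, its lowest normalized IL-1 value was on the Sample array, as at the brightest probes of KYNU and TDO2. In the unnormalized signals the Sample array was the highest for IDO1, at 551.9 against 263.2 and 263 on the Allstars IL-1 arrays.

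TDO2 carries out the same step and is best known as the liver's enzyme. Its probe ILMN_1716859 had log2 signals of 6.91, 6.76 and 6.68 on the IL-1 arrays and 4.91, 4.64 and 5.48 on the control arrays, at least 1.77-fold higher, with a fitted difference of 1.78 ± 0.28 (SE). It was above background on 3 IL-1 and 0 control arrays. Its other probe, ILMN_2172091, is annotated to the same transcript and was above background on 0 arrays, with log2 signals of 4.48, 4.61 and 4.44 on the IL-1 arrays and 4.78, 4.41 and 4.72 on the control arrays. The 2 TDO2 probes thus disagree, and the TDO2 value rests on 1 of them. In the authors' deposited log2 values the TDO2 difference was 0.75.

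KYNU, the hydrolase that cleaves kynurenine to anthranilic acid, was the only called member of the kynurenine pathway already above background on the control arrays. Its log2 signals were 8.74, 8.52 and 8.41 on the IL-1 arrays and 7.32, 7.12 and 6.90 on the control arrays. The difference was 1.44 ± 0.18 (SE, n = 3 each), or 2.72-fold. The second KYNU probe, annotated to another transcript, had 6.99, 6.45 and 7.05 on the IL-1 arrays and 5.54, 5.53 and 5.81 on the control arrays, at least 1.83-fold higher. KMO, the hydroxylase that competes with KYNU for kynurenine, was above background on 0 arrays, with 5.21, 4.88 and 4.98 on the IL-1 arrays and 4.78, 4.46 and 4.54 on the control arrays. The KMO groups did not overlap, but all these signals were below background.

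The difference of the response between the 2 kinds of title was tested, since that contrast did not enter the choice of genes. The GCH1 difference was 4.61 between the Allstars arrays and 4.27 between the Sample arrays, that of IDO1 4.24 and 3.64, that of KYNU 1.41 and 1.51, and that of TDO2 2.06 and 1.20. For none of the 7 tested members did the difference of responses pass (limma interaction, adjusted p 0.933 to 0.996 over 9078 genes). The Sample response is 1 array against 1, which leaves few residual degrees of freedom, and the IDO1 and TDO2 differences rest on control signals below background. The test therefore does not show that the responses were alike. Over all genes 0 passed, with 552 at an unadjusted p under 0.05, while 45 passed with the authors' values and 7 without background correction. The level itself, apart from IL-1, differed between Sample and Allstars arrays for 1 of the 7 members, PTS, which was higher by 0.73 ± 0.09 on the Sample arrays (SE, limma adjusted p = 1.79e-05). Its second probe differed by 0.37 (limma adjusted p = 0.00843). Of all genes tested, 47.5% passed that contrast.

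**Figure D3:**
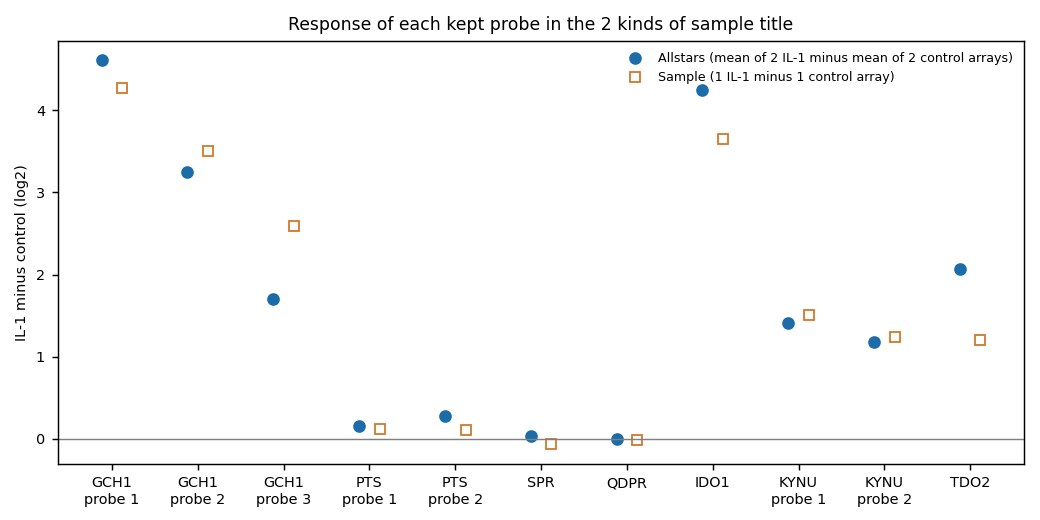
IL-1 minus control difference in log2 signal (y axis) of the 11 member probes that passed the detection filter, in the Allstars arrays (filled circles, means of 2 against 2) and the Sample arrays (open squares, 1 against 1). GCH1, IDO1, KYNU and TDO2 lie above 0 in both kinds, and PTS, SPR and QDPR lie near it.

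Genes that neighbour the members in metabolism were taken from lists drawn up with earlier results of these data known. They hold 66 other genes with a named probe, of which 42 were tested, and 10 of these passed as higher and 1 as lower, where 6.08% of all genes tested passed as higher and 2.94% as lower. Since the lists were drawn up with results known, these counts are a description. Fitting the title kind as a block called 14 higher and 9 lower, where it called 13% of all genes higher and 22.2% lower. An alternative added after seeing the data used the same block, with array medians made equal in place of the quantile step. In it 11 passed, and every list had the counts of the quantile-normalized fit without a block. The calls given below as made only with the block are thus lost there. In that alternative the limma adjusted p largely followed the size of the difference. It was 1.32e-18 for NAMPT (2.54), 5.14e-10 for NFKB1 (1.72), 0.000865 for NNMT (1.11) and 0.583 for AHR (0.27). Differences as small as those of the block-only calls had little room to pass, so their loss there does not count against them.

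In the pterin pathway, 2 of 4 other named enzymes were tested, CBR1 and AKR1C3, and 0 passed. CBR1, a carbonyl reductase that can stand in for SPR, differed by 0.51 ± 0.22 (SE, limma adjusted p = 0.224, or 0.0328 with the block, a call lost under equal medians). Of the 6 other named enzymes that use tetrahydrobiopterin, 0 were tested, since none was above background on 3 arrays. Of 10 genes for arginine supply and nitric oxide control 7 were tested, 1 rose and 1 fell. The arginine transporter SLC7A2 had log2 signals of 7.98, 7.93 and 7.71 on the IL-1 arrays and 5.75, 6.27 and 6.75 on the control arrays, a rise of 1.62 ± 0.27 (SE, limma adjusted p = 0.00847). That probe (ILMN_1781400) was above background on 3 IL-1 and 2 control arrays. The SLC7A2 probes ILMN_1711451, annotated to the same transcript, and ILMN_1685830 were above background on 0 arrays. They differed by 0.002 and 0.020, so the SLC7A2 value rests on 1 probe. Arginase ARG2, which competes for arginine, had 6.45, 6.59 and 6.32 on the IL-1 arrays and 7.96, 7.68 and 7.16 on the control arrays, and its difference was -1.15 ± 0.24 (SE, limma adjusted p = 0.0229). In both genes the groups did not overlap, and the difference was smallest between the Sample arrays. Without IL-1 replicate 1, SLC7A2 and ARG2 no longer passed (limma adjusted p = 0.0506 and 0.0895), and ARG2 also failed without IL-1 replicate 2, control replicate 1 or control replicate 2 (limma adjusted p 0.0641 to 0.106). With no detection filter ARG2 did not pass either (limma adjusted p = 0.0682). Under equal medians neither SLC7A2 nor ARG2 passed without the block (limma adjusted p = 0.9999 each), and both passed with it. With the block SLC7A1 also rose (0.48) and DDAH1, which degrades inhibitors of nitric oxide synthase, also fell (-0.48), and neither passed with the block under equal medians.

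Of the 9 other kynurenine enzymes 7 were tested and 0 passed (limma, 3 at an unadjusted p under 0.05). IDO2 and HAAO were above background on 0 arrays. All 7 differences lay below 0, with a median of -0.28, where 65.4% of all tested genes lay below 0 and their median was -0.11. The aminotransferase AADAT had a difference of -0.61 ± 0.24, KYAT1 of -0.55 ± 0.22, the formamidase AFMID of -0.52 ± 0.23 and GOT2 of -0.28 ± 0.11 (SE, limma adjusted p 0.191 to 0.241). These 4 passed as lower with the block, and 0 of the 7 passed with the block under equal medians. The AADAT and AFMID values each rest on 1 probe. Their other probes were above background on 0 arrays, with differences of 0.12, -0.12 and -0.21 for AADAT and 0.06 for AFMID. QPRT, which leads from the pathway to NAD, differed by -0.05 ± 0.17.

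Of the 5 tested genes of tryptophan transport and charging, WARS1 rose and 0 fell. WARS1, the tryptophanyl-tRNA synthetase of the cytosol, had log2 signals of 11.96, 12.04 and 11.41 on the IL-1 arrays and 9.89, 9.74 and 9.62 on the control arrays. The difference was 2.05 ± 0.19 (SE, limma adjusted p = 0.000396), and 2.27 at its second probe. Under equal medians WARS1 did not pass without the block (limma adjusted p = 0.182) but passed with it. The transporters SLC3A2 and SLC16A10 differed by -0.44 and -0.65 and passed as lower only with the block. Of 5 tested genes of amino acid shortage sensing, ATF4, DDIT3 and ASNS among them, 0 passed (limma, 1 at an unadjusted p under 0.05, DDIT3, with a difference of 0.37 that passed only with the block).

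Of 7 tested genes of NAD salvage and use, 2 rose and 0 fell. NAMPT, which salvages nicotinamide, had log2 signals of 10.14, 9.73 and 10.72 on the IL-1 arrays and 7.05, 7.32 and 8.11 on the control arrays, a rise of 2.70 ± 0.33 (SE, limma adjusted p = 0.00195), and of 2.16 at its second probe. NNMT, which methylates nicotinamide, had 10.87, 10.64 and 10.84 on the IL-1 arrays and 9.07, 9.45 and 10.17 on the control arrays, a rise of 1.22 ± 0.26 (SE, limma adjusted p = 0.0277). NNMT did not pass without any 1 of the 4 Allstars arrays (limma adjusted p 0.0829 to 0.114), with the authors' values (0.0593) or under equal medians (0.9999). Its difference was 1.49 between Allstars arrays and 0.67 between Sample arrays.

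Kynurenine is a ligand of the aryl hydrocarbon receptor AHR. Of 7 named genes in the list of AHR and its targets, 4 were tested and 2 rose. ARNT, AHRR and CYP1B1 were above background on 0 arrays. AHR itself differed by 0.36 ± 0.34 (SE, limma adjusted p = 0.616), with an adjusted p of 0.0297 with the block, 0.583 with the block under equal medians and 0.0554 on Allstars arrays alone. Its target TIPARP had 9.70, 9.57 and 9.34 on the IL-1 arrays and 8.08, 8.03 and 8.69 on the control arrays, a rise of 1.27 ± 0.21 (SE, limma adjusted p = 0.00844), which became 0.0506 without IL-1 replicate 1. Under equal medians TIPARP did not pass without the block (limma adjusted p = 0.9999) but passed with it (0.000795). The TIPARP difference was 1.58 between Allstars arrays and 0.65 between Sample arrays. CYP1A1 had 6.60, 7.12 and 6.13 on the IL-1 arrays and 4.80, 4.82 and 5.67 on the control arrays. It was above background on 3 IL-1 and 0 control arrays and at least 1.58-fold higher (limma adjusted p = 0.0395). It passed the detection filter only through the IL-1 arrays, where it is high. The call was lost without any 1 of the 4 Allstars arrays (limma adjusted p 0.123 to 0.156), with no detection filter (0.0717), with the authors' values (0.198) and under equal medians (0.802), and the CYP1A1 difference was 2.05 between Allstars arrays and 0.47 between Sample arrays. NQO1, another target, differed by -0.34 and passed as lower only with the block.

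Of 5 tested genes known to regulate the members, 4 rose. IRF1, an interferon-responsive transcription factor known to act on IDO1, had log2 signals of 11.56, 11.62 and 10.93 on the IL-1 arrays and 8.85, 9.10 and 8.47 on the control arrays, a rise of 2.57 ± 0.24 (SE, limma adjusted p = 4.00e-04). The kinase JAK2 rose by 1.91, and the NF-kappaB subunits NFKB1 and RELA rose by 1.75 and 1.36 (limma adjusted p 4.81e-05 to 0.00272). Under equal medians without the block JAK2, NFKB1 and RELA did not pass (limma adjusted p 0.445 to 0.9999), while IRF1 did (0.0289). With the block all 4 passed there. BIN1, a tumour suppressor known to restrain IDO1 in mouse cells, differed by -0.09 ± 0.12.

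**Figure D4:**
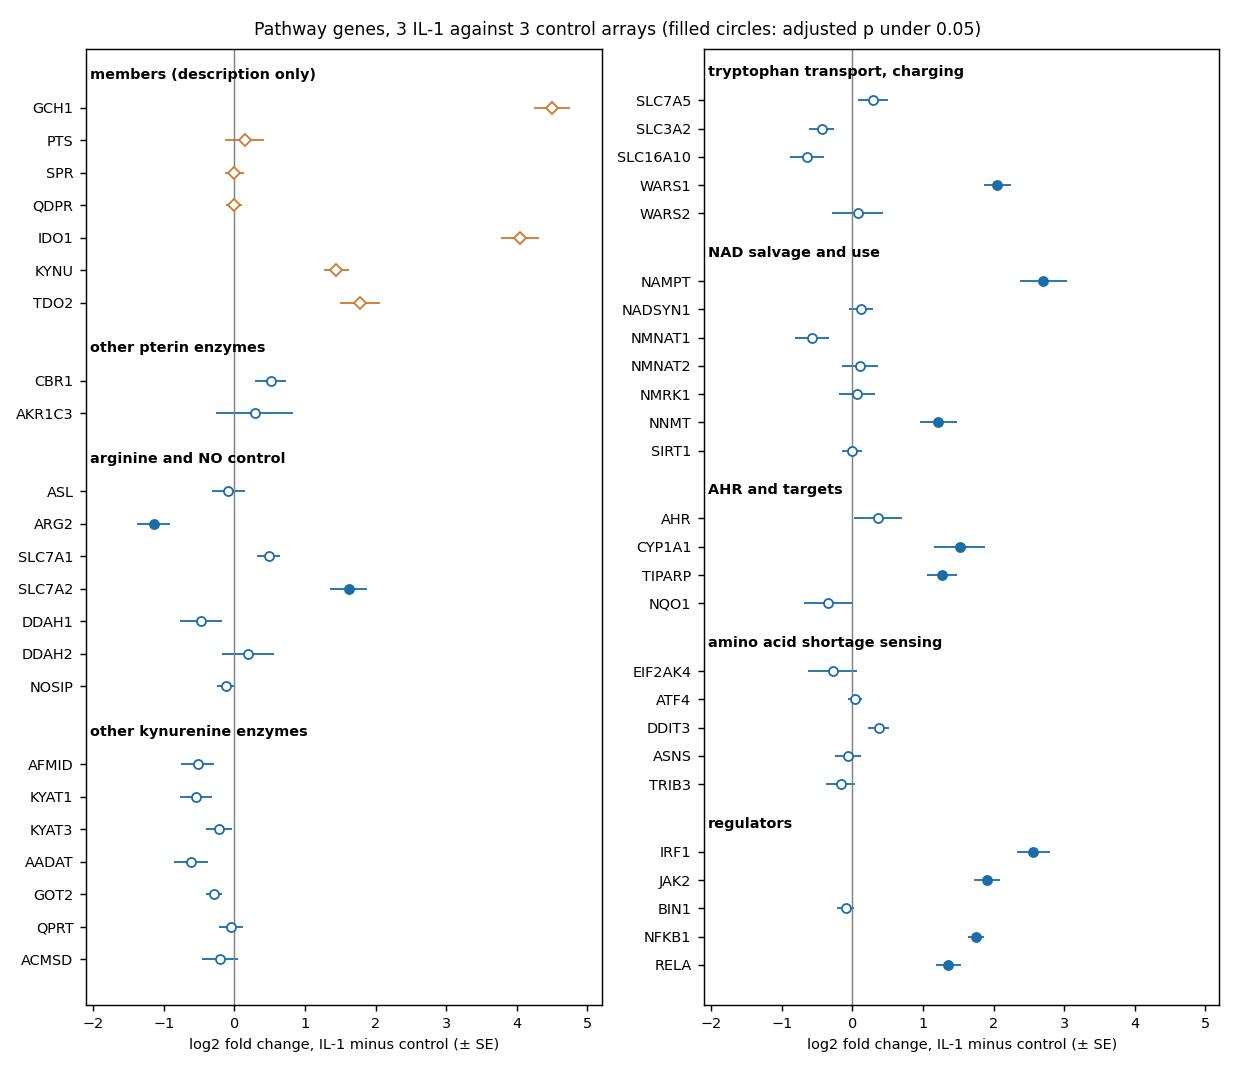
Log2 fold change, IL-1 minus control, with its SE (x axis) for the 7 tested members (orange diamonds, description only) and 42 tested genes of related pathways (circles, filled where the limma adjusted p was under 0.05). The IDO1, TDO2 and CYP1A1 points are fitted against control signals below background, where only a bound was measured. The NMNAT1 point is fitted from IL-1 signals below background (0 IL-1 and 3 control arrays above it), where the bound was 1.08-fold lower. ARG2 is the one filled circle below 0.

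The genes most like each called member over the 6 arrays were found by Euclidean distance between log2 signals centred on each gene's mean. Nearest to GCH1 were TNFAIP3, IL24, SAA1, TNFAIP2 and CCL7, at distances of 0.44 to 0.72 and with differences of 4.52 to 5.00. Nearest to IDO1 were MX1, GBP5, IFITM1, GBP6 and BATF2, at 0.40 to 0.57 and with differences of 3.85 to 4.16. Nearest to KYNU were MXD1, ZSWIM4, ADM, TICAM1 and C3AR1, at 0.21 to 0.29. Nearest to TDO2 were LYSMD2, CCN4, NOCT, C1S and JUNB, at 0.28 to 0.37. The values were not scaled, so a gene can be near a member only if its IL-1 difference is of like size, and the distances are a description over 6 arrays in 2 groups.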

How the data were processed

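RNA of whole SW1353 cultures was read on 6 Illumina bead arrays. Per the file headers, the deposited table holds intensity signals with detection p-values, for 48784 probes per array. The authors also deposited log2 values of the 6 arrays in the series matrix, and the submitters' processing notes name lumi, whose settings are not given in the sources used here. Those log2 values have medians of 5.87, 5.86 and 6.49 on the IL-1 arrays and 5.86, 5.87 and 6.50 on the control arrays, run in the same direction as the signals (correlation 0.983 to 1.00) and show no centring of genes. These medians lay close together within each kind of title and apart between the 2 kinds. Whether the kinds were normalized apart is not stated.

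Here, neqc of limma 3.58.1 in R 4.3.3 was applied to the signals (normexp from detection p-values, offset 16, quantile). The detection filter (p under 0.01 on 3 or more arrays) left 13017 probes, and taking for each gene its probe of highest mean left 9078 genes. The platform annotation names 1 gene for 28085 probes and several for 13, and 20686 probes are unnamed here. Tests used lmFit and eBayes with a trend, two-sided, adjusted by Benjamini-Hochberg over all genes, and second probes were read from a fit over all kept probes. The number of arrays limits the precision. Samples of the same number deviated together (correlations 0.53, 0.55 and 0.82), but the labels number only replicates 1 and 2, and replicate 1 of IL-1 also correlated with replicate 2 of control (0.48). The title kind was therefore fitted as the block beside the results. The members and lists were chosen with earlier results of these data known. Named genes were all members, called genes of each list, NOS1, NOS3, IDO2, WARS1, NAMPT, AHR and IRF1 whatever their values, and the 5 nearest genes of each called member. Other genes were named with their values known, and some listed genes are not reported here. Simulated data served to test the fits.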

Additional observations from a re-analysis of the deposited data

How the results depend on the processing

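Over the alternatives the fitted difference was 3.13 to 4.69 for GCH1, 2.31 to 4.29 for IDO1, 1.01 to 1.55 for KYNU and 0.75 to 2.06 for TDO2. The members were chosen on this contrast, so their calls are no evidence of stability. KYNU was not called under equal medians, and TDO2 neither there nor with the authors' values. No direction was reversed for a called member or a called pathway gene. GCH1, IDO1, KYNU and TDO2 were called whichever replicate was left out (4 to 4 members). Under equal medians without the quantile step 2 members were called, and with detection on all 6 arrays 1, where GCH1, IDO1 and TDO2 were not tested. With that filter the lost calls follow from the filter itself. Elsewhere the cause was not tested.

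All genes called numbered 819. The replicate block gave 3323, the title series block 3196, Allstars arrays alone 2582, array weights 2941, equal medians 171, and leaving out each replicate 426 to 965. Of those called, 67.4% were higher, against 36.5%, 37%, 40.6%, 39.2% and 96.5% in the first 5 of these, and between 63.4% and 85.1% with a replicate left out. Equal medians moved the median of all genes to -0.22, against -0.11. Chosen after seeing the data, equal medians with the title series block called 540 genes higher and 539 lower and 4 members higher. Other pathway genes called numbered 11, against 23 with the replicate block and with the title series block, 21 with Allstars arrays alone and with array weights, 2 under equal medians, 11 under equal medians with the title series block, and 6 to 12 with a replicate left out. The 2 called under equal medians were NAMPT and IRF1. The title kind itself separated 4309 genes, 8226 under equal medians, and 2690 to 4171 with a replicate left out. The response differed between title kinds for 0 genes, 45 with the authors' values and 7 without background correction. Signals near background limit the GCH1, IDO1 and TDO2 folds: without background correction the differences were 3.14, 2.36 and 0.79.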
